A study of Mus musculus with 15 samples.

Results

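The transcripts described here encode 10 transcription factors of the cardiac lineage, chosen by gene symbol: Gata4, Gata6, Nkx2-5, Tbx5, Tbx20, Mef2a, Mef2c, Mef2d, Hand2 and Meis1. All 10 symbols were found among the 39331 genes of the count table, and all 10 passed the filter on low counts that left 16437 genes for testing. The RNA came from the left ventricles of C57BL/6 mice that had all undergone an experimental myocardial infarction, and polyadenylated transcripts were sequenced. The 15 libraries form 4 groups: adult hearts with transferred adult T cells (adult recipients 1 to 4, n = 4), adult control hearts (5 to 7, n = 3), neonatal hearts with transferred adult T cells (neonatal recipients 1, 2, 4 and 5, n = 4) and neonatal control hearts (6 to 9, n = 4). For neonatal hearts the protocol names 36 h after infarction, in wording that fits either the transfer or the collection. It gives no time for adult hearts, no age in days and no T cell dose. No uninjured heart is among the groups used here, so every value is from an infarcted ventricle. The labels do not say whether a library is 1 animal or a pool, so the p-values measure the spread between these libraries.

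These factors bind DNA together and regulate one another. GATA zinc finger proteins, the homeobox protein Nkx2-5, T-box proteins and MADS-box MEF2 proteins act side by side on the enhancers of contractile genes, and Hand2 is a basic helix-loop-helix factor of the forming ventricles. In mice Meis1 is known for restraining cardiomyocyte division after birth. The mouse heart loses most of its capacity to regrow muscle in the days after birth, and these genes stay active in cardiomyocytes through that change, several of them also in fibroblasts, smooth muscle or endocardium.

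Upstream sequence in RefSeq (GRCm38.p6) was matched for 7 of the 10 genes. Gata4, Gata6 and Tbx5 were not matched. The 250 bases before an annotated start are shown for Tbx20, which differed most with age, for Nkx2-5, which differed in the other direction, and for Hand2, whose neighbour Hand2os1 begins on the opposite strand 123 bases away in the table. They lie at chr9:24774304-24774553 (minus strand), chr17:26841566-26841815 (minus strand) and chr8:57320733-57320982 (plus strand), and read 5′ to 3′ as follows.
Tbx20: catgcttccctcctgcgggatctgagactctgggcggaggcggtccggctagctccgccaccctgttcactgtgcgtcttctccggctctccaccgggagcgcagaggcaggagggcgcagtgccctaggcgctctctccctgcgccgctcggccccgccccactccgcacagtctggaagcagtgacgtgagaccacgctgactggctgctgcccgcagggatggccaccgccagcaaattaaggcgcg
Nkx2-5: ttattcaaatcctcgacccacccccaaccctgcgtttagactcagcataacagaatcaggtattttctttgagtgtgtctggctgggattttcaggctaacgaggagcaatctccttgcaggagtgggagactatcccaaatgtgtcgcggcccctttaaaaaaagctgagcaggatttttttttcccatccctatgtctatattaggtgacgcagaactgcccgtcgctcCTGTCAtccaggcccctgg
Hand2: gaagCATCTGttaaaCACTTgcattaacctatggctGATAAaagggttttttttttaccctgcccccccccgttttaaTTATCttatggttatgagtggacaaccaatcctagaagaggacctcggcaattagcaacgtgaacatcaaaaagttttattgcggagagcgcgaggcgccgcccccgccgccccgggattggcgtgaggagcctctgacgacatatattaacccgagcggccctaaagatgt
Capitals mark exact matches on either strand to 1 of 6 short motifs, which did not overlap one another here. The motifs were GATAA for GATA factors, AAGTG for NKX2-5, GGTGTNA for T-box factors, TAAAAATA for MEF2, TGACAG for MEIS and CATCTG for HAND. The Hand2 window held 2 GATA matches, 214 and 172 bases before the start, an NKX2-5 match at 235 and a HAND match at 246. The Nkx2-5 window, which lies inside the gene's span in the table, held a MEIS match at 19, and none of the 6 sets of letters is in the Tbx20 window. Among 27025 such windows, 23% held the GATA letters, 40.8% the NKX2-5 letters, 8.53% the T-box letters, 2.48% the MEF2 letters, 16% the MEIS letters and 14.5% the HAND letters. Short matches of this kind are common and describe sequence only.

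Depth ran from 21871617 to 34302786 counts per library. Levels are CPM, the reads of a gene relative to the effective library size after TMM scaling, and the floor of 3 counts was 0.0875 to 0.137 CPM, which covers counting error only. The TMM scaling factors separated the ages, at 0.8844 to 0.9697 in adult and 1.022 to 1.094 in neonatal libraries. Small age differences below therefore depend on this scaling, and a fit scaled by total counts alone was not run. The summed level of 10 cardiomyocyte markers was 55474 to 61248 CPM in adult recipients, 47452 to 49884 in adult controls, 33591 to 42566 in neonatal recipients and 39960 to 43877 in neonatal controls, with no marker at 0. Neonatal control 8 stood apart from the other neonatal hearts. On the first principal component of the neonatal libraries, which held 33.7% of their variance, it lay at 53 and the others at -21.1 to 9.6. In adult hearts recipient 4 had the highest value on the corresponding component, 37.4 against -35.9 to 18.7 for the others. Transcripts of 6 T cell markers summed to 3.23 to 4.96 CPM in adult recipients and 1.91 to 2.71 in adult controls. In the neonatal groups the corresponding sums were 1.79 to 2.65 CPM for neonatal recipients, against 1.5 to 2.66 for neonatal controls, which overlapped.

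Divided by the length of the longest coding transcript, the members spanned more than an order of magnitude. In adult controls Nkx2-5 measured 69.4 ± 8.51 CPM per kilobase, Gata4 65.9 ± 3.76, Mef2a 46.5 ± 6.06, Mef2d 35.4 ± 2.66, Gata6 29.5 ± 0.586, Hand2 18.6 ± 3.29, Tbx20 15.1 ± 0.880, Mef2c 10.8 ± 0.929, Tbx5 5.47 ± 0.629 and Meis1 4.81 ± 0.190 (SD, n = 3). In neonatal controls Gata4 led with 60.3 ± 1.35 CPM per kilobase, ahead of Nkx2-5 at 54.5 ± 2.63 and Mef2a at 48.1 ± 4.59 (SD, n = 4). Neighbours in these orders were often closer than their spread, as with Nkx2-5 and Gata4 in adult controls. Hand2 and Tbx20 changed places between the ages, with Tbx20 at 26.3 ± 2.22 CPM per kilobase and Hand2 at 21.1 ± 0.838 in neonatal controls. Isoform use was not measured, so these levels depend on the transcript chosen for the length.

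**Figure D1:**
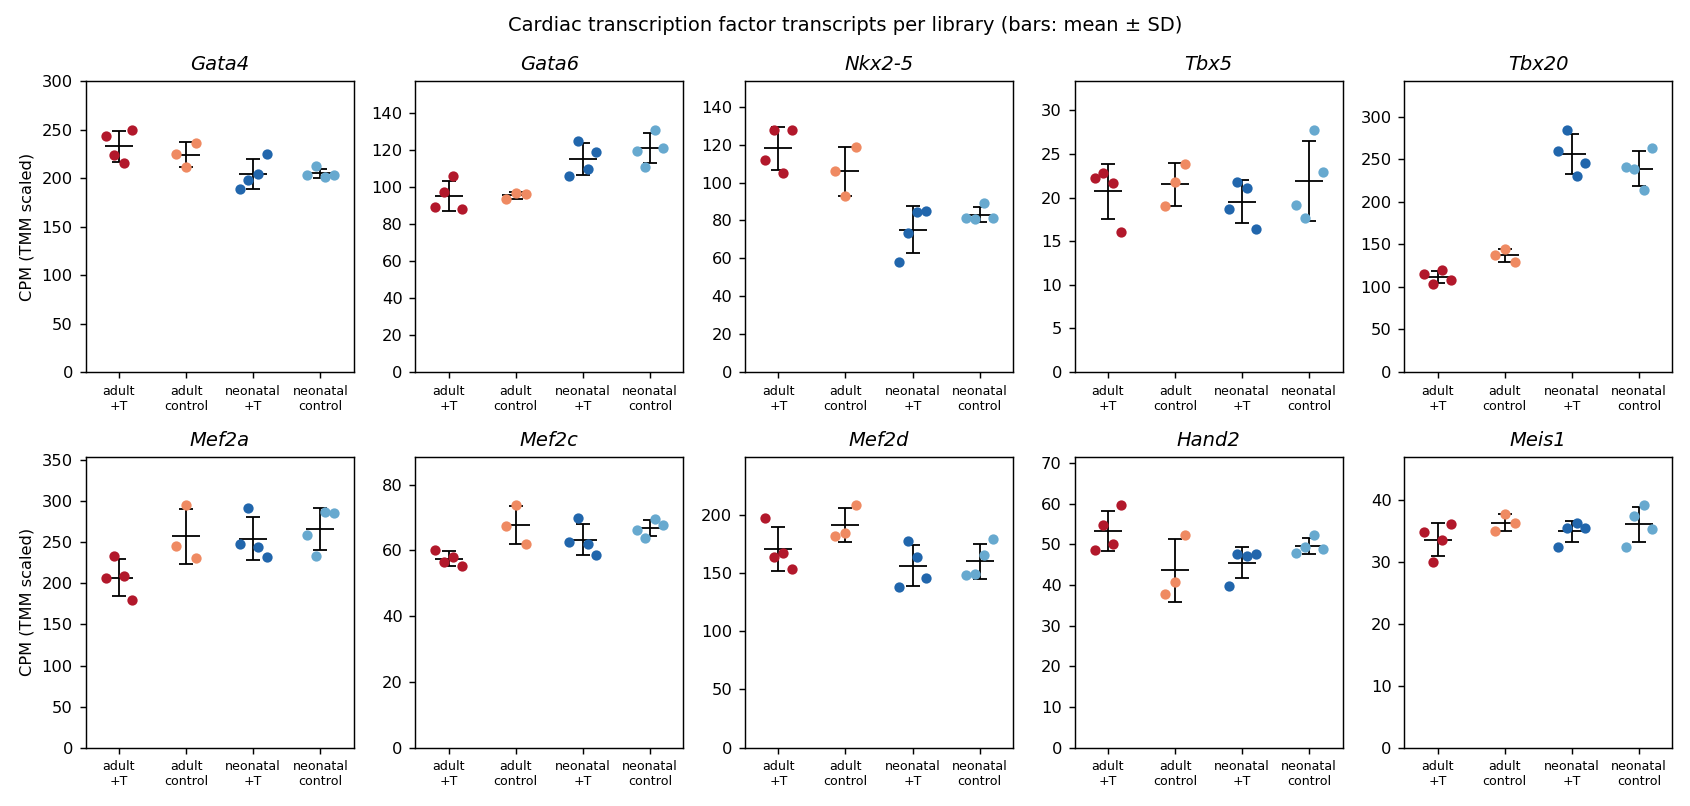
TMM-scaled CPM of the 10 factors in each of the 15 libraries (points), with mean ± SD (bars), in adult recipients, adult controls, neonatal recipients and neonatal controls. Tbx20 lies between 104 and 145 CPM in the 7 adult libraries and between 214 and 285 CPM in the 8 neonatal ones, while Meis1 stays between 30 and 39.2 CPM throughout.

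The first question was how the levels of these factors differ between the ages in hearts without transferred T cells. Adult controls had less Tbx20 and Gata6 and more Nkx2-5 than neonatal controls, and the other members did not pass. That is 3 of 10 called by edgeR (1 higher, 2 lower), while 30.9% of all genes tested were called (15.6% higher, 15.4% lower). The share among these factors was thus close to that of the transcriptome, and their median log2 fold change of -0.01 stood beside -0.02 for all genes. In adult against neonatal recipients 5 of 10 were called (2 higher, 3 lower), with 50.7% of all genes called (23.8% higher, 26.9% lower). Libraries of the groups did not overlap for 4 members in controls, where 34.6% of genes showed this, and for 3 members in recipients, where 45.4% did. Every difference in bulk tissue can reflect fewer cells of a type or less RNA per cell, which cannot be told apart. Markers of other cells moved with age too. Macrophage markers summed to 162 to 223 CPM in adult recipients and 555 to 846 in neonatal recipients (7 of 7 lower), and to 166 to 231 CPM in adult controls and 197 to 661 in neonatal controls (4 of 7 lower). Endothelial markers summed to 1294 to 1319 CPM in adult controls and 938 to 1025 in neonatal controls (5 of 7 higher). Fibroblast markers summed to 3641 to 5641 CPM in adult controls and 3762 to 6287 in neonatal controls (2 of 7 higher, 1 lower). Markers of atrial cardiomyocytes, some of which neonatal ventricles also express, summed to 304 to 3472 CPM in adult recipients, 215 to 1078 in adult controls, 3205 to 7202 in neonatal recipients and 1563 to 5744 in neonatal controls. Erythroid markers summed to 4936 to 6993 CPM in adult recipients and 1589 to 2742 in neonatal recipients (5 of 5 higher), and to 3832 to 4081 CPM in adult controls and 1087 to 3066 in neonatal controls (1 of 5 higher). Neutrophil markers summed to 8.56 to 19.6 CPM in adult recipients and 28.1 to 46.3 in neonatal recipients (4 of 4 lower), with none called in controls. Of 10 cardiomyocyte markers 8 were higher and 1 lower in adult than in neonatal recipients, and 4 were higher and 0 lower in controls. Without neonatal control 8 the 3 called members of the control comparison still passed, at -0.86 for Tbx20, -0.30 for Gata6 and 0.39 for Nkx2-5. The part of cell composition in the results below was not tested.

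Tbx20, a T-box factor that activates or represses its targets by context and is needed to maintain adult cardiomyocytes in mice, had the largest age difference of the set. It lies on chromosome 9 from 24720812 to 24774303 (GRCm38.p6, gene ID 57246). Adult recipients 1 to 4 had 115, 104, 120.1 and 108 CPM, against 260.2, 285, 230.4 and 246 CPM in neonatal recipients 1, 2, 4 and 5. Adult controls 5 to 7 had 137, 145 and 129 CPM, against 241, 239, 214 and 263 CPM in neonatal controls 6 to 9. No adult library reached the lowest neonatal one, which was neonatal control 8. The log2 fold change was -1.19 ± 0.081 (standard error) in recipients (edgeR adjusted p = 9.65e-09) and -0.81 ± 0.088 in controls (adjusted p = 4.25e-06), so neonatal levels were 2.29-fold and 1.75-fold the adult ones. With a trend in transcript length removed the values were -0.87 and -0.72, both still past the threshold. The genes whose profile over all 15 libraries was nearest to that of Tbx20 were Fnip2, Btaf1 and Palm2. Their root mean square differences from it were 0.0961, 0.110 and 0.112 on the log2 scale, where the spread of Tbx20 itself was 0.527.

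Tbx5, the T-box factor of the atria and left ventricle whose human gene is mutated in Holt-Oram syndrome, gave no call with age. It measured 20.7 ± 3.13 CPM in adult recipients and 19.5 ± 2.46 in neonatal recipients, and 21.5 ± 2.48 in adult controls and 21.9 ± 4.53 in neonatal controls. The intervals of the log2 difference were -0.20 to 0.36 in recipients and -0.32 to 0.27 in controls, and in both the groups overlapped. The value in controls was 0.11 without neonatal control 8, which had the highest Tbx5 level of all libraries, 27.8 CPM. An antisense RNA, Gm5563, overlaps 26707 bases of the Tbx5 gene and had 4370 counts over all libraries, against 8326 for Tbx5. The strand setting of the counting is not given in the sources used here, so reads from the 2 strands may be mixed. Within each library the ratio of Tbx20 to Tbx5 was 5.50 ± 0.93 in adult recipients and 13.21 ± 1.73 in neonatal recipients, and 6.42 ± 0.95 in adult controls and 11.30 ± 2.56 in neonatal controls. Such ratios do not depend on library scaling, but they were not corrected for the trend in transcript length.

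After TMM scaling the GATA factors had opposite signs with age, and Gata4 passed in recipients only. Gata6, which also acts in smooth muscle and endoderm, had 89.4, 97.2, 106 and 88.3 CPM in adult recipients 1 to 4, against 106, 125, 109.8 and 119 CPM in neonatal recipients 1, 2, 4 and 5. Its levels in adult controls 5 to 7 were 93.3, 96.8 and 96.3 CPM, against 119.6, 111, 131 and 121 CPM in neonatal controls 6 to 9. The recipients touched at 106 CPM, whereas the controls did not overlap. Gata6 was lower in adult hearts, at -0.27 ± 0.074 in recipients (adjusted p = 0.00527) and -0.34 ± 0.081 in controls (adjusted p = 0.00388) on the log2 scale. The difference in recipients was -0.18 with the transcript length trend removed and no longer passed (adjusted p = 0.0685). The nearest profiles were those of Ide, Otud7a and Ednra, at 0.0590, 0.0641 and 0.0692 log2 units, beside a spread of 0.177 for Gata6. A divergent RNA, 1010001N08Rik, overlaps 58 bases of Gata6 and was also lower in adult hearts, at -0.60 ± 0.16 in recipients (adjusted p = 0.00517) and -0.48 ± 0.17 in controls (adjusted p = 0.0426).

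Gata4, the partner of Nkx2-5 and Tbx5 in cardiac gene activation (chromosome 14, 63198914 to 63271712), was among the most abundant members. It had 243, 224, 216 and 250.1 CPM in adult recipients, against 189, 198, 204 and 225 CPM in neonatal recipients. In adult controls it had 225, 211 and 236 CPM, against 203, 212, 201 and 203 CPM in neonatal controls. The groups overlapped in both settings. Gata4 was higher in adult recipients by 0.19 ± 0.071 (adjusted p = 0.0299), a call that was lost without adult recipient 1 or 4 or without neonatal recipient 1, 2 or 4, with adjusted p up to 0.097. It was also lost without the filter on low counts (0.19, adjusted p = 0.0678), and the value was larger with the length trend removed (0.29, adjusted p = 0.00145). In controls the difference of 0.13 ± 0.076 did not pass (adjusted p = 0.217). The ratio of Gata6 to Gata4 was 0.35 to 0.49 in adult recipients and 0.53 to 0.63 in neonatal recipients, and 0.41 to 0.46 in adult controls and 0.53 to 0.65 in neonatal controls. Adult and neonatal ratios did not overlap in either setting.

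Nkx2-5, the homeobox factor at the head of the cardiac programme (chromosome 17, 26838664 to 26844988, gene ID 18091), was more abundant in adult hearts. Adult recipients 1 to 4 had 112, 128, 105 and 128 CPM, against 58.0, 73.4, 84.3 and 85.1 CPM in neonatal recipients. Adult controls had 106, 93.1 and 119 CPM, against 81.4, 80.7, 89.0 and 81.1 CPM in neonatal controls. Every adult library was above every neonatal one, and neonatal recipient 1 was the lowest of all. Nkx2-5 was higher in adults by 0.66 ± 0.11 in recipients (adjusted p = 7.00e-05) and by 0.35 ± 0.11 in controls (adjusted p = 0.0264). The call in controls was lost without adult control 5 or 7 or without neonatal control 6, 7 or 9, with adjusted p up to 0.14. Emc9, Rbm38 and Josd2 had the nearest profiles, at 0.0736, 0.0745 and 0.0831 log2 units, beside a spread of 0.308 for Nkx2-5.

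MEF2 proteins are MADS-box factors held in check by class IIa histone deacetylases. Of the 3 genes only Mef2a was called with age in the edgeR fit of all 15 libraries, in recipients and not in controls. Mef2a, the main MEF2 transcript here (chromosome 7, 67231163 to 67376456), had 206, 233, 209 and 179.7 CPM in adult recipients, against 248, 292, 244 and 232 CPM in neonatal recipients. The groups met at a single pair of libraries, adult recipient 2 and neonatal recipient 5. Mef2a was lower in adult recipients, at -0.29 ± 0.1 (adjusted p = 0.0198), but -0.07 with the length trend removed (adjusted p = 0.533), and the call was lost without adult recipient 4 or neonatal recipient 2 (adjusted p up to 0.0806). In controls it measured 257 ± 33.6 CPM in adults and 266 ± 25.4 in neonates (adjusted p = 0.771). Gabpa, Pcmtd1 and Oxr1 had the nearest profiles, at 0.0539, 0.0581 and 0.0587 log2 units, beside a spread of 0.196 for Mef2a.

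Mef2d, the MEF2 gene linked to stress signalling in the mouse heart, had the opposite sign and passed in part of the fits. It had 182, 184 and 208 CPM in adult controls, against 148, 149, 165 and 179 CPM in neonatal controls, a log2 difference of 0.26 ± 0.10 (adjusted p = 0.0605). These control groups did not overlap. The recipients overlapped, at 170.3 ± 18.8 CPM in adults and 156 ± 17.6 in neonates, and did not pass (0.12 ± 0.094, adjusted p = 0.297). With the length trend removed the values were 0.31 in controls (adjusted p = 0.0106) and 0.33 in recipients (adjusted p = 0.00269), both past the threshold. For recipients this was the only fit that called Mef2d. Without neonatal control 9 the value in controls was 0.32 and passed (adjusted p = 0.0336), while RLE scaling, no filter, limma voom and DESeq2 gave no call. Mef2c, required for the forming heart tube, measured 57.5 ± 2.2 CPM in adult recipients and 63.2 ± 4.77 in neonatal recipients, and 67.7 ± 5.83 in adult controls and 66.8 ± 2.43 in neonatal controls. Neither difference passed (adjusted p = 0.102 and 0.873), and the one in recipients turned to 0.11 with the length trend removed (adjusted p = 0.123). Per kilobase, Mef2a made up 47.9 ± 2.94% of the MEF2 transcripts in adult recipients and 54.0 ± 1.48% in neonatal recipients, and 50 ± 3.73% in adult controls and 54.4 ± 1.22% in neonatal controls. The share of Mef2d was 40.4 ± 2.67% in adult recipients and 34.1 ± 1.73% in neonatal recipients, and 38.3 ± 4.18% in adult controls and 33.5 ± 1.22% in neonatal controls. Mef2c held 11 to 12.7% in every library.

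**Figure D2:**
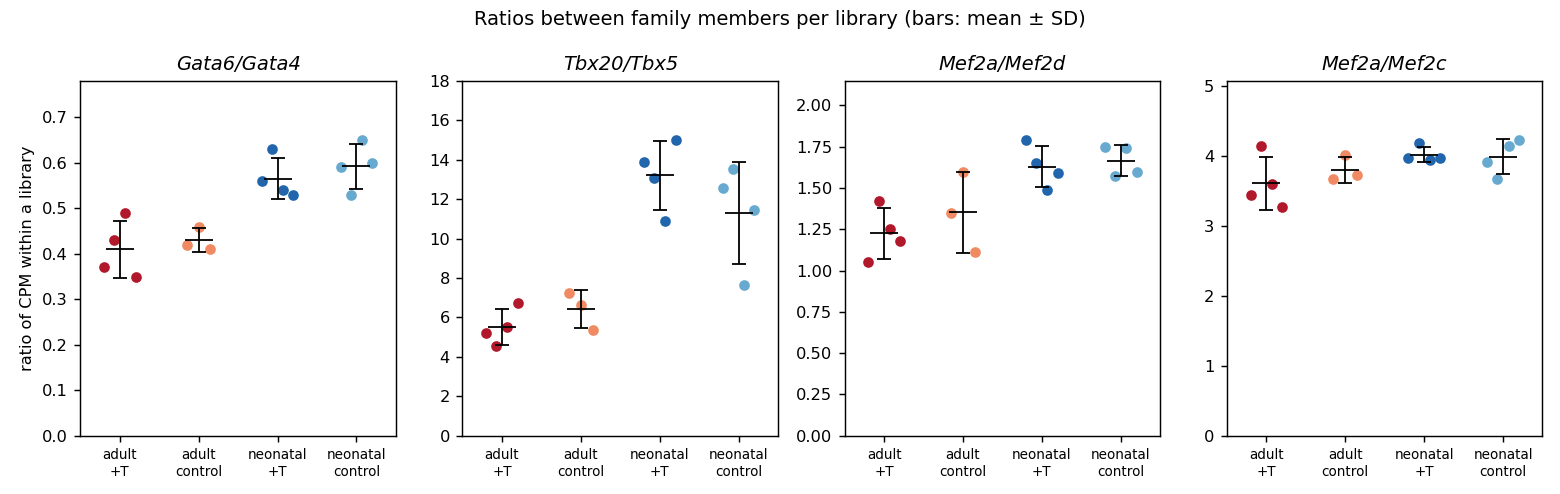
Ratios of CPM between 2 members of a family within each library (points), with mean ± SD (bars), for Gata6/Gata4, Tbx20/Tbx5, Mef2a/Mef2d and Mef2a/Mef2c in adult recipients, adult controls, neonatal recipients and neonatal controls. Tbx20/Tbx5 lies at 4.55 to 7.25 in adult and 7.67 to 15 in neonatal libraries, and Mef2a/Mef2c overlaps between all groups.

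These 4 ratios were compared between groups by exact two-sided permutation tests, 16 in all. Between the ages, Gata6/Gata4 differed by -0.46 log2 units in recipients and -0.47 in controls, each with the smallest p that 4 against 4 or 3 against 4 libraries allow, 0.0286. The same p was found in recipients for Tbx20/Tbx5 (-1.27) and Mef2a/Mef2d (-0.42). Tbx20/Tbx5 in controls, at -0.79, had an exact p of 0.0571. After Benjamini-Hochberg adjustment over the 16 tests the lowest value was 0.114, so no ratio passed at 0.05. With a smallest p of 0.0286, a ratio could pass only if most of the 16 tests reached that value. The adjusted values therefore could not decide whether a ratio differed with age. Between recipients and controls of either age all ratios overlapped.

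Hand2, whose loss in mice impairs the right ventricle, and Meis1 complete the set. Hand2 (chromosome 8, 57320983 to 57324517) had 48.7, 54.8, 50.1 and 59.6 CPM in adult recipients, against 39.7, 47.6, 47.2 and 47.6 CPM in neonatal recipients. In controls it had 37.7, 40.8 and 52.3 CPM in adults, against 47.9, 49.4, 52.4 and 48.9 CPM in neonates. Adult recipients were all above neonatal recipients, whereas adult controls 5 and 6 were below all neonatal controls and adult control 7 was among them. Neither difference passed, at 0.23 ± 0.095 in recipients (adjusted p = 0.0519) and -0.19 ± 0.10 in controls (adjusted p = 0.180). In recipients several alternatives called Hand2 higher, with values of 0.23 to 0.28. It passed by DESeq2 (adjusted p = 0.0437), by limma voom (0.0497), with RLE scaling (0.0391), in a fit of these groups alone (0.0299), and with the length trend removed (0.0203), but not without the filter on low counts (0.057). Of 8 fits that left out 1 library it passed in 1, without adult recipient 1 (adjusted p = 0.039). In controls it passed as lower without adult control 7 (-0.34, adjusted p = 0.0173). The divergent noncoding neighbour Hand2os1 was lower in adult hearts, at -0.33 ± 0.10 in recipients (adjusted p = 0.0112) and -0.31 ± 0.11 in controls (adjusted p = 0.0406). Its level was 50.9 CPM in adult recipients and 64.0 in neonatal recipients, and 55.9 in adult controls and 69.0 in neonatal controls.

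Meis1 (chromosome 11, 18880428 to 19019651) was the most even member. It had 34.8, 30, 33.6 and 36.2 CPM in adult recipients, 35.0, 37.8 and 36.3 in adult controls, 32.5, 35.6, 36.4 and 35.6 in neonatal recipients, and 32.5, 37.4, 39.2 and 35.4 in neonatal controls. All groups overlapped, and its spread over the 15 libraries was 0.0941 log2 units, the lowest of the 10. The age difference was -0.06 in recipients (interval -0.21 to 0.09) and 0.01 in controls (interval -0.15 to 0.17). With the length trend removed the difference in recipients became 0.23 and passed (adjusted p = 0.024), so this call depends on that setting. The antisense RNA Gm16141 overlaps 28679 bases of Meis1 and had 330 counts over all libraries, against 14124 for Meis1. Hoxb13, a partner of Meis1 in mouse cardiomyocytes, had no count in any library, which at the depth here allows up to 0.137 CPM.

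**Figure D3:**
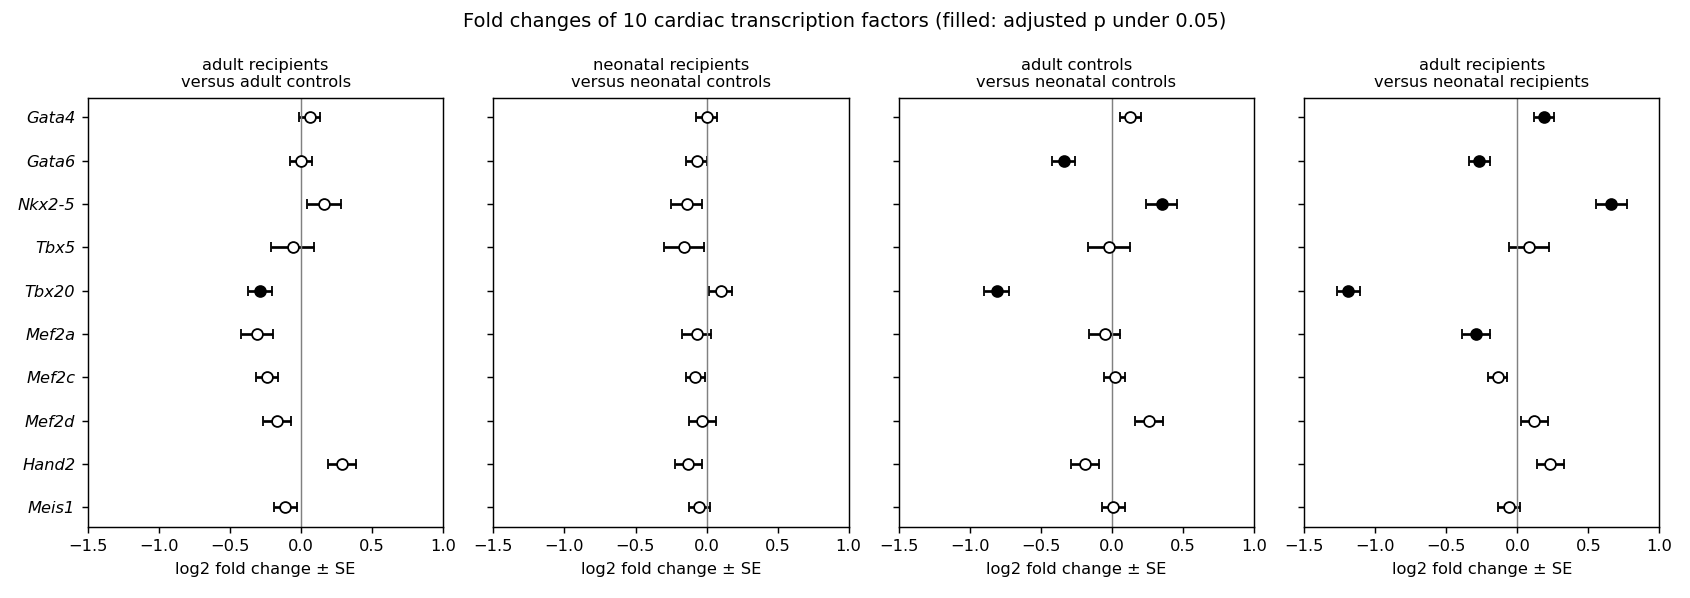
Log2 fold changes ± standard error of the 10 factors in 4 comparisons: adult recipients against adult controls, neonatal recipients against neonatal controls, adult against neonatal controls and adult against neonatal recipients. Filled points passed at an adjusted p of 0.05. Tbx20 lies farthest from 0 in both age comparisons, at -0.81 and -1.19, and is the 1 filled point among the recipient against control comparisons.

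The second question was whether transferred adult T cells altered these factors. In adult hearts Tbx20 was lower in recipients than in controls and the other members did not pass. That is 1 of 10 called, 0 higher and 1 lower, with 8.55% of all genes called (3.53% higher, 5.03% lower). Tbx20 averaged 112 ± 7.31 CPM in adult recipients and 137 ± 8 in adult controls (SD, n = 4 and 3), and the highest recipient, at 120.1 CPM, was below the lowest control, at 129. Its log2 fold change was -0.29 ± 0.087 (edgeR adjusted p = 0.0449). The call was lost in 5 of 7 fits that left out 1 adult library, those without recipient 1, 2 or 4 or control 5 or 6 (adjusted p up to 0.173). It was also lost with RLE scaling, without the filter on low counts and with the length trend removed, where the value was -0.05 (adjusted p = 0.760).

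Mef2a and Mef2c stood near the threshold in adult hearts. Mef2c had 60.2, 56.5, 58.1 and 55.1 CPM in adult recipients, against 67.3, 73.7 and 62.0 CPM in adult controls, with no overlap and a log2 fold change of -0.24 ± 0.074 (adjusted p = 0.0523). Mef2a averaged 207 ± 22 CPM in recipients and 257 ± 33.6 in controls, overlapping at recipient 2 and control 7 (-0.31 ± 0.11, adjusted p = 0.0716). Alternatives moved both to either side of the threshold. Mef2c passed by DESeq2 (adjusted p = 0.0394), in a fit of these groups alone (0.0453) and without adult control 7 (0.0358), and Mef2a in the fit of these groups alone (0.0466). With the length trend removed the values were -0.06 for Mef2c and -0.16 for Mef2a, and neither passed. Hand2 leaned the other way, with 53.3 ± 4.91 CPM in recipients and 43.6 ± 7.73 in controls (0.29 ± 0.10, adjusted p = 0.0814). Its value in control 7 lay among the recipients, and without that library the difference was 0.44 (adjusted p = 0.0201). Non-overlapping groups were found for 2 of 10 members, Tbx20 and Mef2c, and for 25.1% of all genes. Nkx2-5, Gata4, Gata6, Tbx5, Mef2d and Meis1 had log2 differences from -0.17 to 0.16 with adjusted p of 0.299 or more. Markers of cardiomyocytes moved in the same comparison, with 3 of 10 higher and 1 lower in recipients and no overlap of their sums, 55474 to 61248 CPM in recipients and 47452 to 49884 CPM in controls. Erythroid sums did not overlap either, at 4936 to 6993 CPM in adult recipients and 3832 to 4081 CPM in adult controls, with 0 of 5 markers called. Their part in these results was not tested.

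In neonatal hearts no member was called between recipients and controls, and 0% of all 16437 genes were called by edgeR. DESeq2 and limma voom also called 0, and 513 genes had an unadjusted p under 0.05, none of them a member. Tbx20 averaged 256 ± 23.2 CPM in neonatal recipients, against 239 ± 20.2 CPM in neonatal controls, a difference of 0.10 with an interval of -0.06 to 0.25. The other 9 members had values from -0.16 for Tbx5 to -0.00 for Gata4. Hand2 was the 1 member whose libraries did not overlap, a state found for 1.36% of genes. It had 39.7, 47.6, 47.2 and 47.6 CPM in recipients, against 47.9, 49.4, 52.4 and 48.9 CPM in controls (-0.13 ± 0.095, unadjusted p = 0.200 in the edgeR fit). Meis1, at 35.0 ± 1.71 CPM in recipients and 36.1 ± 2.85 in controls, had an interval of -0.19 to 0.10. For the 10 members the intervals, each unadjusted and taken alone, reached at most 0.44 log2 units in either direction, the widest bound being that of Tbx5.

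The difference of the T cell effect between the ages was tested directly, as the adult effect minus the neonatal one. No member passed, and edgeR and limma voom called 0 genes, while DESeq2 called 123 and 2511 genes had an unadjusted p under 0.05 in edgeR. Tbx20 had a difference of -0.39 ± 0.12 (unadjusted p = 0.00408, adjusted p = 0.191 in edgeR) and Hand2 of 0.42 ± 0.14 (unadjusted p = 0.00804, adjusted p = 0.204). They were the 2 members with an unadjusted p under 0.05. The value of Tbx20 was -0.16 with the length trend removed, and that of Hand2 was 0.42.

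Other cardiac transcription factors were measured beside the members, from a list of 34 genes of which 28 were tested. Between adult and neonatal recipients 8 were higher, 7 lower and 13 not called, and between adult and neonatal controls 5 were higher, 5 lower and 18 not called. The shares of this list were near those of all genes, of which 50.7% were called in recipients and 30.9% in controls. Hand1, the left ventricular relative of Hand2, averaged 0.408 ± 0.146 CPM in adult recipients and 2.54 ± 0.611 in neonatal recipients, and 0.218 ± 0.0225 in adult controls and 1.86 ± 0.243 in neonatal controls. It was low throughout, and its log2 fold changes of -2.63 ± 0.26 in recipients and -3.07 ± 0.32 in controls had the smallest p of the list in both. Hey2, a Notch target of the ventricular compact layer, averaged 13 ± 1.1 CPM in adult recipients and 31.3 ± 5.14 in neonatal recipients and was lower (-1.27 ± 0.15). Its relative Hey1 averaged 21.9 ± 1.15 CPM in adult recipients and 11.7 ± 0.639 in neonatal recipients and was higher (0.90 ± 0.11). Tbx18, an epicardial and sinus node factor, was lower in adult recipients, at -1.03 ± 0.14 (adjusted p = 1.15e-05). Tbx2 and Tbx3, T-box repressors of the chamber programme, were higher in adult controls by 0.74 ± 0.13 and 0.82 ± 0.16 (adjusted p = 0.000311 and 0.000869). T-box genes thus stood among both the higher and the lower ones. Isl1, Nkx2-6, Tbx1, Mef2b and Mesp1 were too low to be tested.

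**Figure D4:**
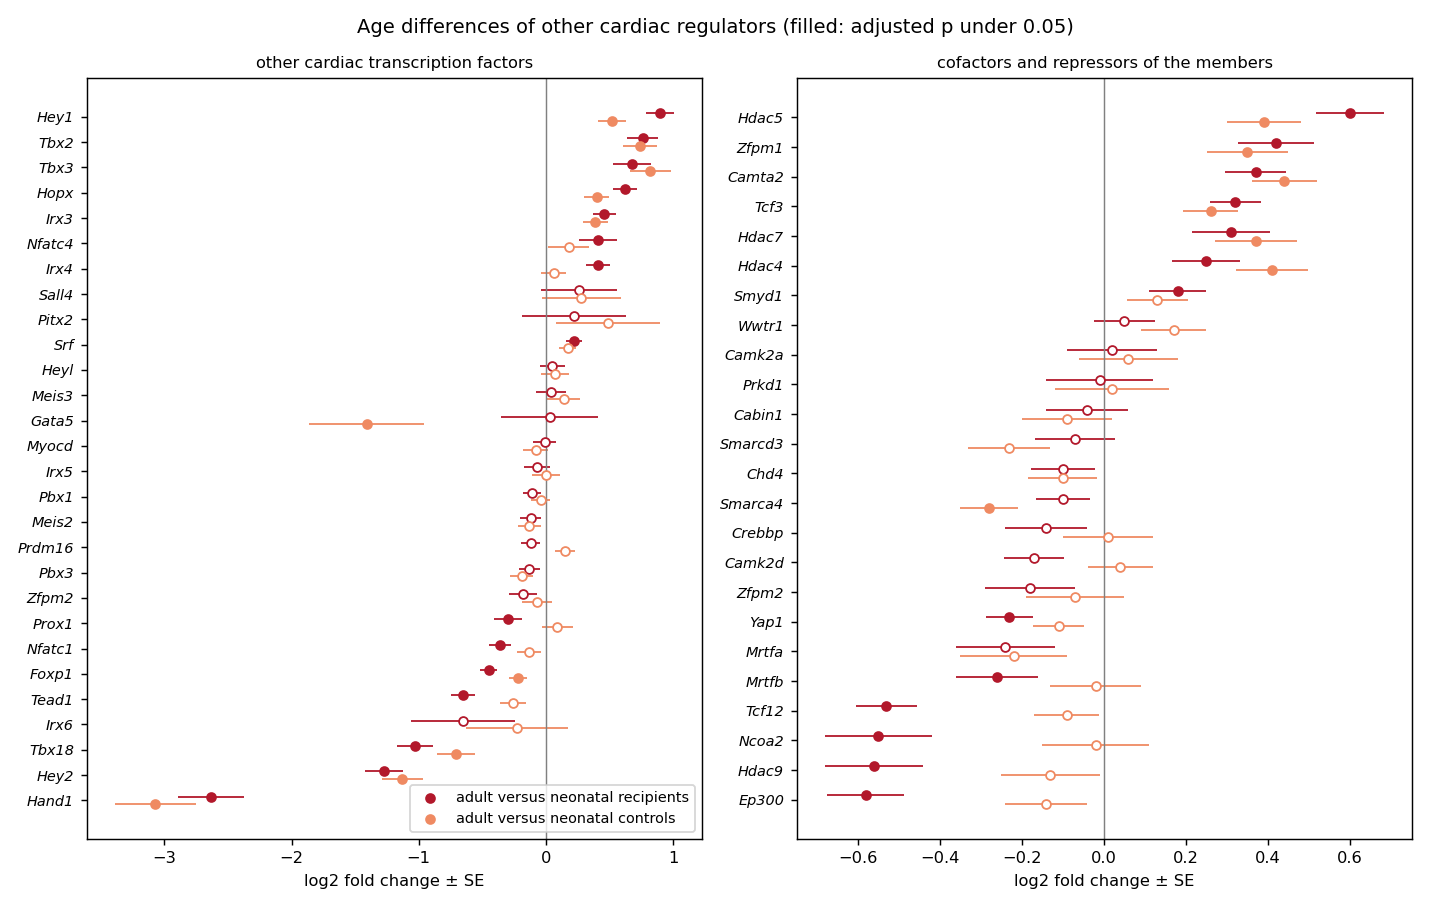
Log2 fold changes ± standard error with age for 28 other cardiac transcription factors (left) and 24 cofactors and repressors of the members (right), in adult against neonatal recipients and in adult against neonatal controls. Filled points passed at an adjusted p of 0.05. Hand1 lies lowest at -2.63 and -3.07, and Hdac5 highest among the cofactors in recipients at 0.60.

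Among 24 tested cofactors and repressors of the members, 7 were higher and 6 lower in adult than in neonatal recipients, and 6 were higher and 1 lower in controls. That is 13 of 24 and 7 of 24, close to the 50.7% and 30.9% of all genes called in these comparisons. The class IIa histone deacetylases, which bind and silence MEF2 proteins, were split. Hdac5 averaged 149 ± 7.85 CPM in adult recipients and 98.7 ± 10.1 in neonatal recipients (0.60 ± 0.084, adjusted p = 1.57e-05), and Hdac4 and Hdac7 were higher by 0.25 and 0.31. Hdac9 averaged 19.1 ± 1.74 CPM in adult recipients and 28.2 ± 3.94 in neonatal recipients and was lower (-0.56 ± 0.12, adjusted p = 0.000591). In controls Hdac4, Hdac5 and Hdac7 were higher in adults by 0.41, 0.39 and 0.37, and Hdac9 differed by -0.13 (adjusted p = 0.462). Camta2, a coactivator of Nkx2-5 that class II deacetylases repress in mice, was higher by 0.37 ± 0.074 in recipients and 0.44 ± 0.079 in controls. Tcf3, an E protein that pairs with Hand factors, was higher by 0.32 ± 0.062 in recipients, and Tcf12 and Ep300 were lower, at -0.53 ± 0.074 and -0.58 ± 0.094. Zfpm2, the FOG cofactor of Gata4, did not pass in either (adjusted p = 0.187 and 0.680).

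With T cells in adult hearts, 4 of the 24 cofactors were lower and none higher: Tcf12, Ep300, Hdac9 and Ncoa2. Over all genes 5.03% were lower and 3.53% higher in that comparison, and no test set the list apart from them. Ep300, the acetyltransferase that joins Gata4 and MEF2 at enhancers, averaged 30.9 ± 2.79 CPM in adult recipients and 43.3 ± 3.47 in adult controls (-0.49 ± 0.10, adjusted p = 0.018). Of the other cardiac factors Prdm16, Tead1 and Prox1 were lower, at -0.35 ± 0.081, -0.40 ± 0.10 and -0.42 ± 0.12 (adjusted p = 0.0214, 0.0253 and 0.0394). No listed gene of these 2 groups passed with the length trend removed, and none did when recipient 4, control 5 or control 6 was left out of the adult libraries, each of which left 0 called genes in the whole table. Without recipient 2 the whole table had 464 called genes, with 0 of the other cardiac factors and 2 of the cofactors among them. In neonatal hearts none of either list passed, where 0 genes of the whole table were called.

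Genes known as direct targets of these factors did not share 1 direction with age. Of 26 tested, 10 were higher and 4 lower in adult than in neonatal recipients, and 5 were higher and 5 lower in controls, where 50.7% and 30.9% of all genes were called. Mb, the myoglobin gene driven by MEF2, averaged 10203 ± 629.7 CPM in adult recipients and 3280.3 ± 438 in neonatal recipients. Slc8a1, the sodium-calcium exchanger, averaged 369.8 ± 22.5 CPM in adult recipients and 845 ± 50.7 in neonatal recipients. Tnni3, the cardiac troponin I gene, and Ckm, the muscle creatine kinase gene, were higher in adult recipients by 1.10 ± 0.11 and 1.08 ± 0.13. Gja5, the connexin of conduction tissue activated by Tbx5 and Nkx2-5, was lower in adults, at -0.73 ± 0.11 in recipients and -0.88 ± 0.12 in controls. Cdkn1a, a cell cycle inhibitor among the genes raised by Meis1 in mice, was higher at 81.0 ± 0.812 CPM in adult recipients and 50.9 ± 5.06 in neonatal recipients (0.67 ± 0.095). Meis1 itself gave no call there, except with the length trend removed (0.23, edgeR adjusted p = 0.024). A link between these genes was not tested. With T cells in adult hearts Tnnc1, Actc1 and Myl2 were higher and none of the 26 lower, by 0.39 ± 0.098, 0.33 ± 0.094 and 0.35 ± 0.10 (adjusted p = 0.0271, 0.039 and 0.0438), beside 3.53% of all genes higher. None of the 26 passed with the length trend removed, and leaving out 1 library left 0 to 2 called, with 0 left without recipient 2, recipient 4, control 5 or control 6. DESeq2 called 9 and a fit of these groups alone 10. The median of the list was 0.33 in that comparison, beside -0.00 for all genes and -0.09 for the 10 factors. Tnnt2, Tnni3, Myh6 and Myl2 are in this list and also among the cardiomyocyte markers, whose median was 0.26 in the same comparison. The part of this overlap in the result was not tested.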

How the data were processed

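The authors deposited 1 table of expected counts per RefSeq gene, unscaled and partly fractional (61.1% of non-zero values were whole). Its length column equals the genomic span and was not used. Per the submitters' processing notes, bcl2fastq 2.20.0.422, cutadapt 2.5, STAR 2.7.2b, featureCounts 1.6.4 and DESeq2 1.24.0 were used with GRCm38.p6; the feature counted, the strand setting and the rule for fractions are not given in the sources used here. Per the labels' protocols, libraries were made with the TruSeq Stranded mRNA kit.

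Counts were rounded to whole numbers, filtered with filterByExpr (minimum count 10, minimum total 15) and scaled by TMM. All 15 libraries entered 1 robust quasi-likelihood fit (edgeR 4.0.16, R 4.3.3) with 1 coefficient per group and no covariate. Tests were two-sided and adjusted by Benjamini-Hochberg over 16437 genes, with a threshold of 0.05. Each standard error was derived from the fold change and its F statistic, and intervals are 95% normal intervals. They are narrow for so few libraries, and an interval can exclude equality where the edgeR p-value is above 0.05. Log2 profiles used a prior count of 1. Transcript lengths are those of the longest coding transcript in GENCODE M21; the length trend was a spline with 5 degrees of freedom per library, entered as an offset. Alternatives were RLE scaling, no filter, a fit of the compared groups alone, leaving out each library, a replicate block, the length trend, DESeq2 1.42.0 and limma 3.58.1 (voom). The steps were tested on simulated data, which held no transcriptome-wide age difference, length trend or outlying library and so do not cover these features. No pair of libraries of a group agreed within sampling noise (chi-square per gene 9.47 to 65.4 over 21 pairs).

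The members and lists were chosen with earlier results of these data known. All 10 members are named, with up to 4 called genes per list and comparison having the smallest p, and the 3 nearest profiles of 4 members called with age. Nearness was the root mean square difference of centred log2 CPM, leaving out predicted genes. Hdac7, Zfpm2, Hoxb13 and Cdkn1a, the untested genes and the neighbouring noncoding RNAs were named outside this rule, after their values were seen. Shared replicate numbers were not taken as pairs.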

Additional observations from a re-analysis of the deposited data

Results flagged for a closer look

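Among 30 sets of 4 libraries (10 members in 3 groups), 3 held a library far from the rest by Dixon's test, where chance flags about 1 in 20. Nkx2-5 was high in neonatal control 8, at 89.0 CPM against 80.7 to 81.4 CPM in the other neonatal controls. Tbx5 was low in adult recipient 4, at 16 CPM against 21.7 to 22.8 CPM in the other adult recipients. Hand2 was low in neonatal recipient 1, at 39.7 CPM against 47.2 to 47.6 CPM in the other neonatal recipients.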

How the results depend on the processing

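The calls of Tbx20 with age passed in every fit run, with log2 fold changes of -0.86 to -0.76 in controls and -1.24 to -1.14 in recipients when 1 library was left out. For adult recipients against adult controls, the count of members called was 0 with RLE scaling, without the filter and with the length trend removed, 3 by DESeq2 (Tbx20, Mef2c and Hand2) and in a fit of these 2 groups alone (Tbx20, Mef2a and Mef2c), and 0 to 3 without 1 library. The count over all genes was 0 with the length trend removed, 2242 by DESeq2, and 0 to 1230 without 1 library. For the difference of the T cell effect DESeq2 called 123 genes. In neonatal recipients against neonatal controls 0 to 9 genes were called without 1 library. Leaving out 1 library gave 2 to 3 members in adult against neonatal controls, beside 3588 to 5523 called genes over all tested. In recipients it gave 3 to 5 members, beside 7429 to 8078 genes. The cause of these shifts was not tested.

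Signs turned only for small differences, and a single turned value passed, Meis1 in adult against neonatal recipients. Between adult recipients and adult controls Gata6 was 0.01 with RLE scaling and by DESeq2, 0.00 without the filter and 0.02 with the length trend removed, and ran from -0.06 to 0.03 without 1 library. Tbx5 was 0.01 and Meis1 0.10 with the length trend removed, and Tbx5 ran from -0.15 to 0.05 without 1 library. Between neonatal groups, leaving out 1 library gave -0.06 to 0.03 for Gata4 and -0.10 to 0.03 for Mef2d. Between adult and neonatal controls it gave -0.12 to 0.11 for Tbx5, -0.16 to 0.03 for Mef2a, -0.05 to 0.08 for Mef2c and -0.04 to 0.05 for Meis1. There Tbx5 was 0.02 and Mef2a 0.01 with the length trend removed, and Meis1 was -0.00 without the filter. Between adult and neonatal recipients the length trend removed gave 0.11 for Mef2c and 0.23 for Meis1. In the difference of the T cell effect it gave 0.03 for Mef2c, 0.02 for Mef2d and 0.15 for Meis1, and Tbx5 ran from -0.01 to 0.21 without 1 library.

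Replicate numbers are shared by 2 pairs of controls and 3 pairs of recipients across the ages, and not between recipients and controls of one age. Correlations of same-numbered libraries were -0.061 and 0.31 in controls and 0.072, 0.11 and -0.071 in recipients, so the numbers were not taken as pairs. With a replicate block over these libraries 3 members and 3927 genes were called in controls, against 2 members and 3021 genes without the block. In recipients 6 members were called with and without it, with 7276 and 7330 genes. In these few libraries Tbx5 in controls was 0.32 with and without the block, and Mef2a was 0.10 with it and 0.11 without. Gata6 in controls was -0.25 in both and did not pass, Mef2d passed in both, at 0.41 with the block and 0.42 without, and Nkx2-5 passed only with it. In recipients Hand2 was the member gained, at 0.30 with and without the block. In recipients Tbx5 was -0.01 with the block. The fit without the block and the ratios without 1 library were added after seeing the data.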
